A study of Mus musculus with 12 samples.

Results

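Fibroblast growth factor (FGF) signalling was followed through 10 genes in whole mouse lung at 4 time-points: the ligands Fgf7, Fgf9, Fgf10 and Fgf18, the receptors Fgfr1, Fgfr2, Fgfr3 and Fgfr4, and the feedback inhibitors Spry2 and Spry4. The genes were taken by symbol, and all 10 had a row among the 16152 genes of the raw count table and the 51825 genes of the CPM table (read counts scaled to the mapped reads of each library). Lungs of C57BL/6 mice of both sexes were collected before birth at E15.5 and E18.5 and after birth at P5 and P8, with 3 lungs per time-point and no treatment or genotype contrast. All 3 lungs at each age were litter mates. Litter and time-point cannot be told apart, and p-values measure the spread within litters. RNA was sequenced from the whole organ as paired-end 101 nt reads, and in such bulk samples fewer cells of a type and less RNA per cell cannot be told apart.

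FGFs are secreted proteins that bind receptor tyrosine kinases together with heparan sulfate, and the activated receptors signal through docking proteins to the MAP kinase cascade. In the developing lung, Fgf10 made by the mesenchyme acts on the epithelial form of Fgfr2 to drive branching, Fgf7 binds the same receptor form, Fgf9 is made by mesothelium and epithelium and acts on the mesenchyme, and Fgf18 is best known for its part in mesenchymal growth and alveolar formation. Sprouty proteins are induced by the pathway and dampen it, and Fgfr3 and Fgfr4 together are needed for normal alveolar formation after birth.

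The upstream sequences of the 3 ligands with the largest fitted changes are shown to let their base composition be seen beside their time courses. Each run holds the 250 bases before the RefSeq start of the gene on GRCm38.p6, read 5′ to 3′ on the strand of the gene, with CG dinucleotides in capitals.
Fgf7: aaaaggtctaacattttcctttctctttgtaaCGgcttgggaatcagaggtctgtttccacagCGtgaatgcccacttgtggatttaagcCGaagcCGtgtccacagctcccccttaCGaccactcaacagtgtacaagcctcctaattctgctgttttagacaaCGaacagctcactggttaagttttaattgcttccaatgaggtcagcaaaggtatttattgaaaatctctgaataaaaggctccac
Fgf18: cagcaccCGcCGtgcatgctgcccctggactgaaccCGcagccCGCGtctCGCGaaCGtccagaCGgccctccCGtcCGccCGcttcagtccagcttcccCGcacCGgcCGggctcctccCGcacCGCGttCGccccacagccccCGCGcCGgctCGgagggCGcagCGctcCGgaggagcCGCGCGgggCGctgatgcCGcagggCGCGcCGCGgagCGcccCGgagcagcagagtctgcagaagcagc
Fgf9: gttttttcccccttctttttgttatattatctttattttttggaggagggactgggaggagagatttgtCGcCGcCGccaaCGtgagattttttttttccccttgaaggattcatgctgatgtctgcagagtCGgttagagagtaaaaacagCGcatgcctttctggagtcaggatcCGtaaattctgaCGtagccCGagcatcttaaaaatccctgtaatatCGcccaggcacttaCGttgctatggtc
The Fgf7 stretch (chr2:126034408-126034657, plus strand) held 6 CG dinucleotides and was 43.6% G or C. The Fgf18 stretch (chr11:33147401-33147650, minus strand) held 37 and was 77.2% G or C, and the Fgf9 stretch (chr14:58072436-58072685, plus strand) held 11 and was 44.8% G or C. The Fgf9 stretch lies inside the gene as Gencode vM21 gives it, from 58070547, so that the annotations place its start differently. Over 32851 promoters of the same length the median was 6 CG dinucleotides and 52.4% G or C. Fgf7 and Fgf18, whose levels rose over the same intervals, had unlike upstream base composition. None of the 3 held the letters TATAAA on either strand, which 12.4% of all promoters held, and GGGCGG, held by 32.7% of them, occurred 1 time upstream of Fgf18 and not upstream of Fgf7 or Fgf9.

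The 12 libraries held 41337443 to 53901957 reads on counted genes, with a median of 46869635. Markers of the organ were present at every time-point, the 8 lung epithelial markers summing to 1433 to 1686 CPM at E15.5 and to 12986 to 15571 CPM at P8. Genes of neighbouring organs stood out in some libraries: the 11 thymus markers summed to 36.8 CPM in E15.5 replicate 2 and to 230 and 436 CPM in P8 replicates 1 and 2, against 4.50 to 24.3 CPM in the other 9. The 5 heart and skeletal muscle markers summed to 425 and 438 CPM in E15.5 replicates 1 and 2 and 14.2 CPM in replicate 3. They summed to 9.39 to 26.2 CPM at E18.5, to 45.5, 109 and 141 CPM in the libraries of P5, and to 374, 237 and 43.7 CPM in those of P8. No fit left out P5 libraries on account of these markers. Counts of called genes from E15.5 to E18.5 are also given without the E15.5 libraries high in heart genes. Those from P5 to P8 are also given without the libraries high in thymus genes. The calls of named genes that change without these libraries are given both ways.

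Changes were tested with the quasi-likelihood test of edgeR in 1 fit of all 12 libraries, with the false discovery rate (FDR, Benjamini-Hochberg) taken over the 15994 genes tested. A gene was counted at FDR under 0.05, and separately at the cutoff that also asks for an absolute log2 fold change over 1. From E15.5 to E18.5, 5 of the 10 FGF genes rose at FDR under 0.05, against 11.6% of all genes tested, and 0 fell, against 9.87%; DESeq2 also called 0 lower and 1 was lower at an unadjusted p under 0.05. Across birth, from E18.5 to P5, all 10 passed, 7 higher and 3 lower, against 35.4% and 35.7% of all genes. From P5 to P8, 2 rose and 0 fell by edgeR, against 9.75% and 8.21% of all genes; 2 were lower at an unadjusted p under 0.05 and DESeq2 called 2 lower.

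The changes were mostly small. With the fold change cutoff, 0 of the 10 were called from E15.5 to E18.5 by edgeR, by DESeq2 or at an unadjusted p under 0.05, against 1.59% of all genes higher and 1.46% lower. In the interval across birth only Fgf9 was called by edgeR, lower, against 9.34% of all genes lower and 17.5% higher. After P5 only Fgf9 was called by edgeR, higher, against 2.88% of all genes higher and 0.0875% lower, and limma on log2(CPM + 1) called 0. The median log2 fold change of the 10 genes was 0.37, 0.34 and 0.05 in the 3 comparisons in turn, and that of all genes lay between -0.01 and 0.00.

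**Figure D1:**
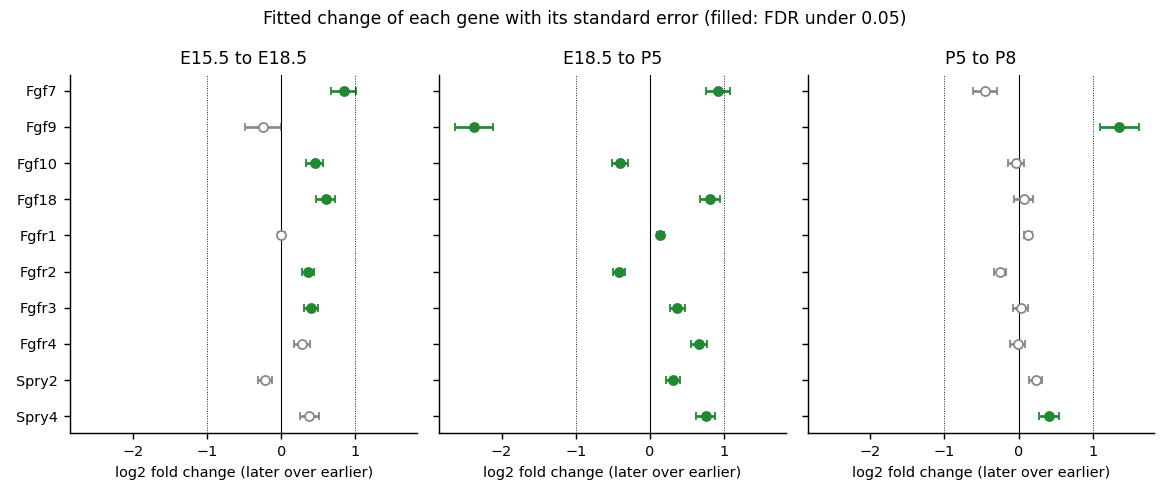
Fitted log2 fold change (later over earlier time-point, x axis) of the 10 FGF genes in the 3 comparisons. Points are edgeR estimates with their standard errors, filled where the FDR was under 0.05, and dotted lines mark -1 and 1; Fgf9 alone lies beyond them, at -2.37 and then 1.36.

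Among the ligands, Fgf7 and Fgf18 rose through birth. Fgf7 (chr2:126034658-126091185 on mm10, plus strand) was at 4.83, 5.82 and 4.74 CPM in the 3 libraries of E15.5, 11.1, 9.34 and 6.92 CPM at E18.5, then 15.82, 15.55 and 17.42 CPM at P5, and 10.5, 12.1 and 13.7 CPM at P8. No neighbouring time-points overlapped, and P5 held the highest libraries. Fgf7 rose 1.79-fold from E15.5 to E18.5 (log2 fold change 0.84 ± 0.17 SE, edgeR FDR 0.00528) and 1.89-fold from E18.5 to P5 (0.92 ± 0.16, edgeR FDR 0.000249). The difference from P5 to P8, -0.45 ± 0.16 on the log2 scale, did not pass by edgeR (FDR 0.0734) and passed by DESeq2 (FDR 0.0468). Leaving out E18.5 replicate 1, E18.5 replicate 3 or P8 replicate 3 gave edgeR FDRs of 0.0459, 0.0324 and 0.0437. In all, 5 of 23 alternatives passed.

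Fgf18 (chr11:33117430-33147400, minus strand) was at 6.96, 8.08 and 8.12 CPM at E15.5, 13.7, 11.5 and 9.65 CPM at E18.5, then 16.8, 21.2 and 19.9 CPM at P5, and 19.9, 19.7 and 21.6 CPM at P8. The libraries of each of the first 3 time-points lay above all those before, and those of P5 and P8 overlapped. It rose 1.51-fold (log2 fold change 0.60 ± 0.13, edgeR FDR 0.00911) and then 1.76-fold (0.81 ± 0.13, edgeR FDR 0.00012), and from P5 to P8 the difference was 0.07 ± 0.13 (edgeR FDR 0.748).

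Fgf9 went the other way at birth and had the lowest level per exon length. It (chr14:58070547-58112720, plus strand) was at 4.91, 6.39 and 6.10 CPM at E15.5, 5.07, 6.05 and 3.41 CPM at E18.5, then 1.04, 0.950 and 0.641 CPM at P5, and 2.44, 2.03 and 2.42 CPM at P8. The prenatal time-points overlapped, every P5 library lay below every other library, and P8 lay between P5 and the prenatal ones. The P5 values rest on 65, 46 and 39 reads. Fgf9 fell to 0.193 of its E18.5 level at P5 (log2 fold change -2.37 ± 0.26, edgeR FDR 4.83e-06). It rose 2.57-fold from P5 to P8 (1.36 ± 0.26, edgeR FDR 0.00641), with all 3 libraries of P8 above all 3 of P5.

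From P5 to P8, where Fgf9 rose, mesothelial genes and some lung epithelial genes rose as well. The 5 mesothelium markers summed to 86.5 to 118 CPM at E15.5, 49.6 to 61.6 CPM at E18.5, then 132 to 207 CPM at P5 and 524 to 546 CPM at P8. All 5 rose from P5 to P8 at FDR under 0.05 and over 2-fold by edgeR, against 2.88% of all genes. None of them was at 0 in all libraries. In the interval where Fgf9 fell, 4 of the 5 mesothelium markers rose and 1 fell, against 35.4% and 35.7% of all genes. Of the 8 lung epithelial markers, 3 rose and 4 fell in that interval. From P5 to P8, 3 of these 8 rose and 0 fell by edgeR, against 9.75% and 8.21% of all genes. The part of mesothelial or epithelial RNA in the level of Fgf9 was not tested. Without the 3 libraries high in thymus genes, P8 keeps 1 library, assumed to vary like the other groups, and the rise of Fgf9 was 1.43 ± 0.36 on the log2 scale with an edgeR FDR of 0.0605. In that fit 0 of the 10 genes passed from P5 to P8.

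Fgf10 (chr13:118669791-118792115, plus strand), the ligand of branching, peaked at E18.5. It was at 35.9, 37.3 and 35.8 CPM at E15.5, 53.5, 50.9 and 44.2 CPM at E18.5, then 36.6, 34.9 and 34.5 CPM at P5, and 31.7, 31.7 and 41.8 CPM at P8. The 3 libraries of E18.5 were above all others. It rose 1.37-fold to E18.5 (log2 fold change 0.45 ± 0.11, edgeR FDR 0.0114) and fell by 0.40 ± 0.11 to P5 (edgeR FDR 0.00449); the difference from P5 to P8 was -0.03 ± 0.11 (edgeR FDR 0.869).

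The proportions of the ligands shifted accordingly. Ratios of CPM carry no length correction, so that only their change over time is read. In time order, the ratio of Fgf7 to Fgf10 averaged 0.141 ± 0.0130 (SD, n = 3), 0.182 ± 0.0252, 0.461 ± 0.0388 and 0.347 ± 0.0297. The E18.5 and P5 libraries did not overlap, the highest at E18.5 being 0.207 and the lowest at P5 0.432 (exact two-sided permutation test, p = 0.10, the smallest that 3 against 3 allows). The same ratio for Fgf18 went from 0.234 ± 0.0197 at E18.5 to 0.547 ± 0.0774 at P5, and for Fgf9 from 0.0969 ± 0.0209 to 0.0248 ± 0.00540, each with an exact permutation p of 0.10. Of 24 such comparisons of 8 ratios, 18 stood at that smallest p, and the lowest Benjamini-Hochberg adjusted value was 0.13.

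**Figure D2:**
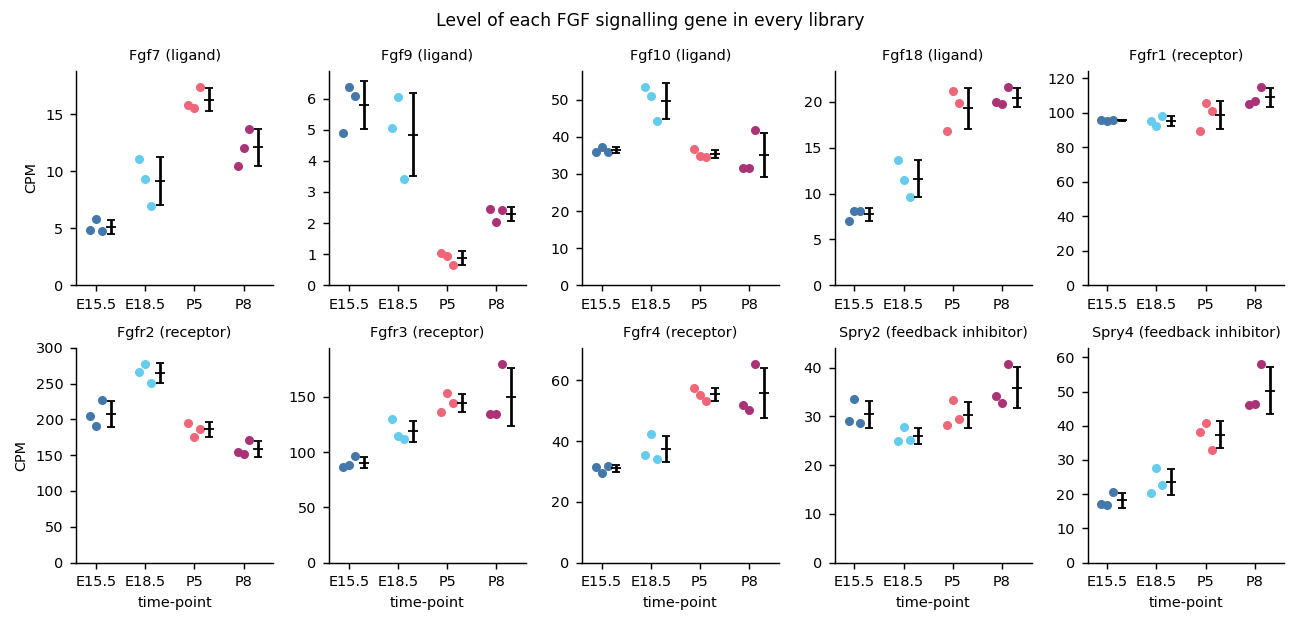
CPM (y axis, from 0) of the 10 FGF genes in every library by time-point (x axis). Coloured points are single libraries, and the black bar to their right gives the mean and SD of the 3; Fgf9 is lowest at P5, at 0.641 to 1.04 CPM, while Fgf7 is highest there, at 15.55 to 17.42 CPM.

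Of the receptors, Fgfr2 fell after birth while Fgfr3 and Fgfr4 rose. Fgfr2, whose splice forms are the receptors of Fgf10 in epithelium and of other FGFs in mesenchyme, was at 205, 190 and 227 CPM at E15.5, 266, 278 and 251 CPM at E18.5, then 195, 175 and 187 CPM at P5, and 154, 151 and 171 CPM at P8. E18.5 was above all other libraries and P8 below them. It rose 1.28-fold to E18.5 (log2 fold change 0.36 ± 0.08, edgeR FDR 0.0103) and fell by 0.42 ± 0.08 to P5 (edgeR FDR 0.00053). The difference from P5 to P8 was -0.25 ± 0.08, with an edgeR FDR of 0.0549 and a DESeq2 FDR of 0.0391. The edgeR FDR was 0.0307 without P8 replicate 3 and 0.0399 and 0.0396 without E15.5 replicate 2 or 3. In all, 5 of 23 alternatives passed. The 4 distal tip epithelium markers went from 532 to 562 CPM in sum at E18.5 down to 308 to 333 CPM at P5. Of these, 3 passed lower, where 35.7% of all genes did. Id2 did not pass (-0.02 ± 0.06, edgeR FDR 0.786), and Etv5, itself a target of FGF signalling, made up most of the sum. The part of these markers in the fall of Fgfr2 was not tested.

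Fgfr3 (chr5:33721674-33737068, plus strand) was at 86.6, 88.1 and 96.3 CPM at E15.5, 130, 115 and 112 CPM at E18.5, then 136, 153 and 144 CPM at P5, and 134, 135 and 180 CPM at P8. Each time-point up to P5 lay above the one before, and P8 replicate 3 was highest. Fgfr3 rose 1.32-fold to E18.5 (log2 fold change 0.40 ± 0.10, edgeR FDR 0.0180) and 1.29-fold to P5 (0.37 ± 0.10, edgeR FDR 0.00641). The first rise was lost without E15.5 replicate 1, E15.5 replicate 2 or E18.5 replicate 1, with edgeR FDRs of 0.0620, 0.0517 and 0.0778. The P5 to P8 difference was 0.03 ± 0.10 (edgeR FDR 0.859), and without P8 replicate 3 it was -0.13 (FDR 0.282).

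Fgfr4 (chr13:55152640-55168759, plus strand) was at 31.5, 29.6 and 31.9 CPM at E15.5, 35.5, 42.4 and 34.2 CPM at E18.5, then 57.5, 55.3 and 53.3 CPM at P5, and 51.8, 50.3 and 65.5 CPM at P8. Both postnatal time-points were above both prenatal ones in every library. It rose 1.58-fold from E18.5 to P5 (log2 fold change 0.66 ± 0.11, edgeR FDR 0.000114). The prenatal difference was 0.28 ± 0.11 (edgeR FDR 0.0804; 0.0330 without P8 replicate 3), and the P5 to P8 difference was -0.01 ± 0.10 (edgeR FDR 0.974).

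Fgfr1 (chr8:25513654-25575718, plus strand), the main receptor of mesenchyme, was the flattest of the 10. It was at 96.1, 95.0 and 95.7 CPM at E15.5, 95.1, 92.6 and 98.2 CPM at E18.5, then 89.6, 106 and 101 CPM at P5, and 105, 107 and 115 CPM at P8. Neighbouring time-points overlapped throughout. The log2 difference from E15.5 to E18.5 was 0.00 ± 0.05 (edgeR FDR 0.989). The 1.10-fold rise to P5 (0.14 ± 0.05, edgeR FDR 0.0369) was lost with library size scaling, where it was 0.07 (FDR 0.299), and by limma on log2(CPM + 1), where it was 0.05 (FDR 0.514). It was also lost without E18.5 replicate 1 or 2, P5 replicate 2 or 3, or P8 replicate 1, with edgeR FDRs of 0.0555, 0.123, 0.204, 0.0971 and 0.0590. At P8 it was 0.13 ± 0.05 above P5 on the log2 scale (edgeR FDR 0.121).

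The proportions of the receptors shifted across birth. Over the 4 time-points, the ratio of Fgfr3 to Fgfr2 CPM averaged 0.437 ± 0.0228 (SD, n = 3), 0.448 ± 0.0374, 0.780 ± 0.0884 and 0.939 ± 0.0990. The prenatal libraries reached at most 0.487 and the postnatal ones started at 0.697 (exact permutation p = 0.10 from E18.5 to P5, the smallest possible). For Fgfr4 to Fgfr2 the ratio was 0.141 ± 0.0103 at E18.5 and 0.298 ± 0.0157 at P5, also without overlap (exact permutation p = 0.10).

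For a rough comparison between genes, CPM was divided by the merged exon length of all annotated transcripts. This length was 10328 bases from 27 transcripts for Fgfr2 and 1187 bases from 2 for Fgf18. It can exceed the length of the transcripts expressed, so that the order of genes depends on the annotation. On this scale Fgfr2 led before birth with 20.1 ± 1.77 CPM per kb at E15.5 and 25.7 ± 1.30 at E18.5. Fgfr3 had the highest mean after birth, with 20.2 ± 1.18 CPM per kb at P5 and 20.9 ± 3.67 at P8. Its libraries did not overlap those of the second gene at either time-point. At P8 they did overlap those of Spry2, the third gene, whose highest library lay above the lowest of Fgfr3, at 18.75 CPM per kb. At P5 the margin to Fgfr2 was narrow, the lowest Fgfr3 library being at 19.02 and the highest Fgfr2 library at 18.93 CPM per kb, and it moved with the exon length used. Taking the exon bases shared with Ctbp2 off the length of Fgfr2 put its highest library at 19.52, an overlap, and taking the shared bases off both lengths put the lowest Fgfr3 library at 22.10, without overlap. Fgf7 and Fgf9 were the 2 lowest at all 4 time-points, in that order, Fgf9 at 0.189 ± 0.0453 CPM per kb at P5. Fgf18 moved from 6.50 ± 0.557 CPM per kb at E15.5, the seventh place, to 17.2 ± 0.891 at P8, the second, where its libraries overlapped those of Spry2, and those of Spry2 overlapped those of Fgfr4. At E18.5, Fgf10, Fgfr4, Fgf18 and Fgfr1 each overlapped their neighbour in the order of levels.

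**Figure D3:**
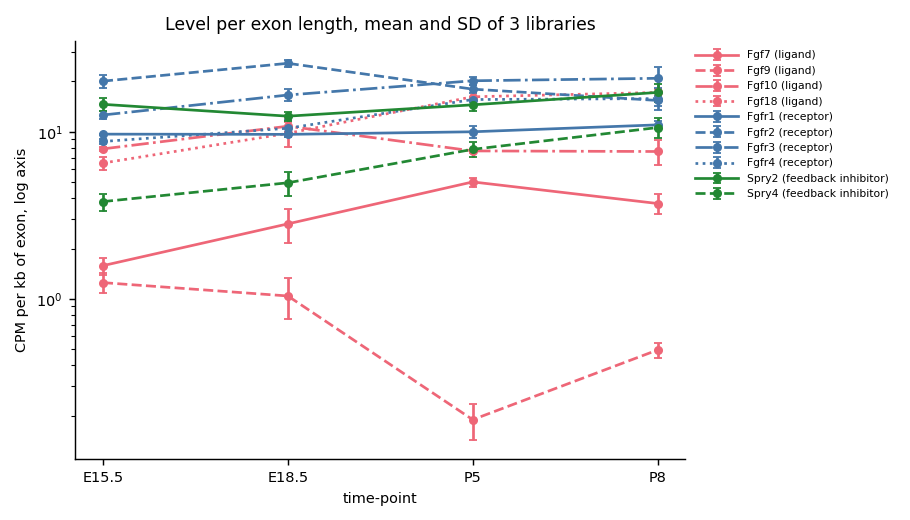
CPM per kb of merged exon (log y axis) of the 10 FGF genes at the 4 time-points (x axis), as means with SD of 3 libraries, ligands in red, receptors in blue and feedback inhibitors in green. Fgfr2 is highest before birth and Fgfr3 after it, and Fgf9 has the lowest mean at every time-point.

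The feedback inhibitors rose after birth. Spry4 (chr18:38586247-38601415, minus strand) was at 17.1, 16.8 and 20.6 CPM at E15.5, 20.2, 27.7 and 22.7 CPM at E18.5, then 38.2, 40.8 and 33.0 CPM at P5, and 46.1, 46.3 and 58.1 CPM at P8. The prenatal time-points overlapped, P5 lay above both, and P8 above P5. It rose 1.68-fold to P5 (log2 fold change 0.75 ± 0.13, edgeR FDR 0.000252). The 1.33-fold rise to P8 (0.41 ± 0.13) stood at an edgeR FDR of 0.0498. Leaving out any 1 library of P5 or P8, E15.5 replicate 1 or E18.5 replicate 3 moved it to between 0.0598 and 0.204. In all, 13 of 23 alternatives lost this call. The difference from E15.5 to E18.5, 0.38 ± 0.13, did not pass by edgeR (FDR 0.0626) and passed by DESeq2 (FDR 0.0311), and also by edgeR without E15.5 replicate 3 (FDR 0.0338) or P8 replicate 3 (FDR 0.0400).

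Spry2 (chr14:105891947-105896819, minus strand) was at 29.0, 33.6 and 28.6 CPM at E15.5, 24.98, 27.87 and 25.05 CPM at E18.5, then 28.1, 33.3 and 29.5 CPM at P5, and 34.1, 32.8 and 40.8 CPM at P8. E18.5 was lowest, without overlap with E15.5 or P5. The rise from E18.5 to P5 was 1.24-fold (log2 fold change 0.31 ± 0.09, edgeR FDR 0.0107), and it was lost without P5 replicate 2 (FDR 0.0601) and by limma on log2(CPM + 1) (FDR 0.0655). The difference before it, -0.22 ± 0.09, and that after it, 0.23 ± 0.09, did not pass (edgeR FDR 0.112 and 0.107). The ratio of Spry4 to Spry2 CPM went from 0.604 ± 0.111 (SD, n = 3) at E15.5 to 1.40 ± 0.0392 at P8.

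The calls of the first comparison were also read without the E15.5 libraries high in heart genes. That fit has fewer libraries, so that heart genes and lost libraries cannot be told apart as the source of a changed call. Without E15.5 replicates 1 and 2, E15.5 keeps 1 library, assumed to vary like the other groups, and 0 of the 10 genes passed FDR 0.05 from E15.5 to E18.5. The fitted log2 differences in that fit were 0.94 for Fgf7, 0.46 for Fgf10, 0.51 for Fgf18, 0.22 for Fgfr2 and 0.30 for Fgfr3. With all libraries they were 0.84, 0.45, 0.60, 0.36 and 0.40 in the same order. Over all genes that fit called 444 higher and 254 lower, against 1863 and 1578 with all libraries. For the interval across birth it changed 1 call among the 10, that of Fgfr1 (FDR 0.0550).

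Cell type markers moved in the same interval as the FGF genes. Between E18.5 and P5 the 5 endothelial markers rose from 912 to 996 CPM in sum to 1911 to 2030 CPM, and all 5 passed FDR 0.05. The 8 lung epithelial markers went from 2158 to 3185 CPM to 14887 to 16835 CPM in sum, with 3 passing higher and 4 lower. Sftpc, at a mean of 1417 and then 12281 CPM, made most of the rise in that sum, while Epcam fell from 209 to 63.8 CPM. The 9 lung mesenchyme markers went from 4214 to 4424 CPM to 4312 to 4786 CPM, with 4 passing higher and 1 lower. The 5 leukocyte markers went from 14.6 to 17.1 CPM up to 93.3 to 120 CPM in sum, all 5 passing higher. In this interval 35.4% of all genes passed higher and 35.7% lower. None of these lists had a marker at 0 in all libraries, and their part in the levels of the FGF genes was not tested.

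Splicing was read for the receptor exons that the study's lists of differential alternative splicing pair with a member, as percent spliced in (PSI), the share of transcripts that include the exon. These events were chosen on these libraries, so that their change from E18.5 to P5 is a description without a test; of 5133 exon events with at least 20 reads in the 6 libraries and a mean PSI from 5 to 95, 25.4% changed by 10 points or more. The event of Fgfr1 (MmuEX0019144) was at 92.5, 88.0 and 95.1% at E15.5, 86.8, 92.2 and 91.4% at E18.5, 81.9, 72.8 and 72.2% at P5, and 72.5, 78.4 and 68.4% at P8. Its mean fell by 14.5 points from E18.5 to P5, and no postnatal library reached a prenatal one. Fgfr1 thus had a nearly level total and a shifted exon use, on 294 to 609 reads per library.

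The 2 exons of Fgfr3 moved in opposite directions. The event MmuEX0019169 was at 55.6, 51.5 and 58.2% at E15.5, 63.0, 63.2 and 48.1% at E18.5, 30.1, 28.6 and 37.0% at P5, and 38.4, 40.5 and 29.8% at P8. The event MmuEX0019170 was at 58.8, 58.2 and 49.3%, then 38.0, 48.3 and 51.4%, then 78.0, 74.5 and 77.9%, and at P8 70.3, 59.3 and 78.0%. Across birth the mean of the first fell by 26.2 points and that of the second rose by 30.9 points, neither with overlap between the time-points, while E15.5 overlapped E18.5 and P5 overlapped P8 for both. The files used here give no positions for these events, so that which domain of the receptor they encode is not stated.

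**Figure D4:**
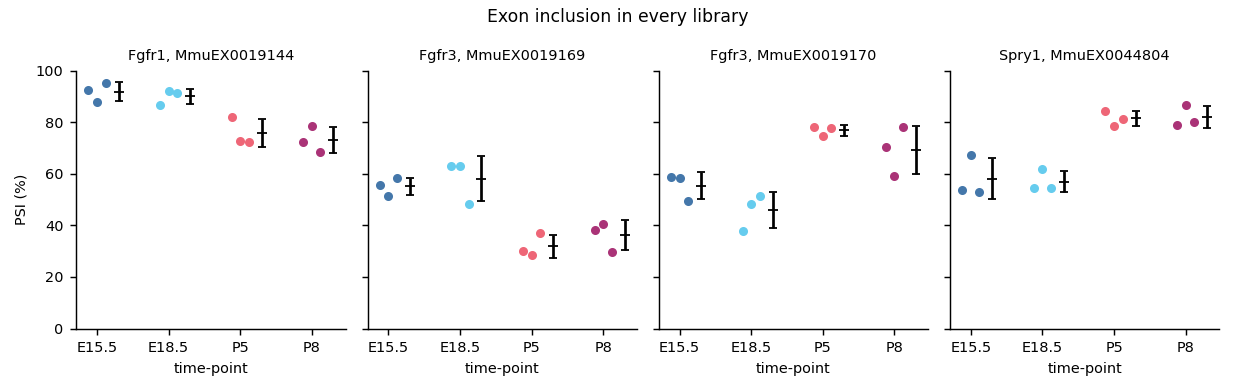
PSI (y axis, 0 to 100%) of 4 exon events in every library by time-point (x axis), 1 in Fgfr1, 2 in Fgfr3 and 1 in Spry1. Points are libraries and the black bar gives mean and SD. Each event separates E18.5 from P5 without overlap, Fgfr1 and the first Fgfr3 event going down and the other 2 going up. The study chose these events on these libraries, so that the separation is a description and not a test.

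The other genes of the pathway were taken from 7 lists of 57 genes, of which 41 passed the filter on low counts. Over the 3 comparisons in time order, 8 rose and 5 fell, then 14 rose and 15 fell, and last 6 rose and 2 fell, all at FDR under 0.05. Across birth these are 34.1% and 36.6% of the 41, near the 35.4% and 35.7% of all genes. In the first comparison they are 19.5% and 12.2%, against 11.6% and 9.87% of all genes, and in the last 14.6% and 4.88%, against 9.75% and 8.21%. With the fold change cutoff the counts were 0 and 1, then 6 and 5, then 2 and 0, where 1.59% and 1.46%, then 17.5% and 9.34%, then 2.88% and 0.0875% of all genes passed. Without the E15.5 libraries high in heart genes, 2 rose and 1 fell in the first comparison, against 2.8% and 1.6% of all genes, and without the libraries high in thymus genes 4 rose and 0 fell in the last, against 1.73% and 1.34%. The median log2 fold change of the tested members was 0.04, -0.02 and -0.01 in turn.

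Of the 14 other ligands, 12 stayed below the filter, the highest of their values being 0.714 CPM for Fgf5. The other 2 rose at FDR under 0.05 in both of the first comparisons, where 11.6% and 35.4% of all genes did. They were Fgf1, which binds all FGF receptors, and Fgf2. Fgf1 was at 22.4, 18.1 and 23.1 CPM at E15.5, 35.6, 42.9 and 32.9 CPM at E18.5, then 120, 122 and 122 CPM at P5, and 109, 117 and 142 CPM at P8. Across birth it rose 3.48-fold (log2 fold change 1.80 ± 0.12, edgeR FDR 5.23e-08), and its 3 P5 libraries lay above all prenatal ones.

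Spry1, another Sprouty gene of the lung, also rose across birth. It went from 39.8, 42.5 and 33.0 CPM at E18.5 to 124, 130 and 122 CPM at P5, a 3.46-fold rise (log2 fold change 1.79 ± 0.11, edgeR FDR 3.3e-08), and its ratio to Spry2 went from 1.48 ± 0.143 to 4.15 ± 0.265 (SD, n = 3). Its exon event MmuEX0044804, chosen by the study on these libraries, was at 54.5, 61.7 and 54.6% at E18.5 and 84.4, 78.7 and 81.3% at P5. Of the 6 other feedback inhibitors tested, Spry1 among them, 2 rose and 2 fell in that comparison. This is 33.3% each way, near the 35.4% and 35.7% of all genes. Dusp6, a phosphatase of ERK named here after its values were seen, was level from E18.5 to P5 (-0.02 ± 0.11, edgeR FDR 0.853) and rose 1.78-fold from P5 to P8 (0.83 ± 0.11, edgeR FDR 0.00134); without the libraries high in thymus genes that rise was 1.04 ± 0.11 (edgeR FDR 0.00529).

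Etv5 and Fgfrl1 went down in the same interval. Etv5, an ETS factor induced by FGF signalling in the distal epithelium and also on the distal tip list, went from 327, 343 and 356 CPM at E18.5 to 183, 185 and 162 CPM at P5 (log2 fold change -0.87 ± 0.09, edgeR FDR 3.46e-06). Fgfrl1, the receptor that lacks a kinase domain, was at 73.7, 73.3 and 67.5 CPM and then at 33.0, 35.8 and 37.9 CPM (-0.92 ± 0.07, edgeR FDR 2.88e-07). Both were named after their values were seen. Over the same interval 1 of the 3 ETS factors rose and 1 fell, or 33.3% each. Of the 8 docking and adaptor proteins 2 rose and 2 fell, or 25% each. Among all genes 35.4% rose and 35.7% fell. In both lists 0 genes were past the fold change cutoff by edgeR, against 17.5% of all genes higher and 9.34% lower.

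Of the 18 heparan sulfate and extracellular regulators, 6 rose and 7 fell across birth, or 33.3% and 38.9%, near the shares of all genes. Enzymes that sulfate heparan sulfate went both ways. Hs2st1 and Ndst1 rose 2.86-fold (log2 fold change 1.52 ± 0.07, edgeR FDR 6.06e-09) and 2.34-fold (1.23 ± 0.08, edgeR FDR 4.81e-08). Among those that fell were Hs6st2 (-1.30 ± 0.11, edgeR FDR 2.96e-07), Hs6st1 (-0.54 ± 0.07, edgeR FDR 1.49e-05) and Ndst2 (-0.31 ± 0.07, edgeR FDR 0.00123), named after their values were seen. Sulf2, which removes sulfate groups, fell to 0.321 of its level (-1.64 ± 0.12, edgeR FDR 9.57e-08). Within the Flrt family of membrane proteins, Flrt3 rose 4.56-fold (2.19 ± 0.14, edgeR FDR 4.78e-08), while Flrt2 (-1.80 ± 0.11, edgeR FDR 3.98e-08) and Flrt1 (-2.41 ± 0.42, edgeR FDR 0.000211) fell. Between P5 and P8, Sulf1 rose 2.25-fold (1.17 ± 0.10, edgeR FDR 0.000165) and Flrt1 3.81-fold (1.93 ± 0.42, edgeR FDR 0.0109), the latter at no more than 1.05 CPM. Without the libraries high in thymus genes the rise of Sulf1 was 1.21 ± 0.14 (edgeR FDR 0.00529), and that of Flrt1 did not pass (1.03 ± 0.50, edgeR FDR 0.280).

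Of the intracellular homologous factors, which are not secreted, Fgf12 was at 4.50 and 5.11 CPM in the E15.5 libraries high in heart genes, 0.492 CPM in E15.5 replicate 3, 0.287 to 0.732 CPM at E18.5 and 6.39 to 7.95 CPM at P5. E15.5 replicate 3 lay within the range of E18.5. The difference from E15.5 to E18.5 passed with all libraries (-2.75 ± 0.63, edgeR FDR 0.0103) and was 0.01 ± 0.43 without those 2 (edgeR FDR 0.996). Fgf12 rose from E18.5 to P5 (3.88 ± 0.64, edgeR FDR 0.000146). The heart and skeletal muscle markers also went up in that interval, from 9.39 to 26.2 CPM in sum to 45.5 to 141 CPM. Their part in the rise of Fgf12 was not tested. Fgf13 fell from E18.5 to P5 (-1.92 ± 0.37, edgeR FDR 0.000514).

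**Figure D5:**
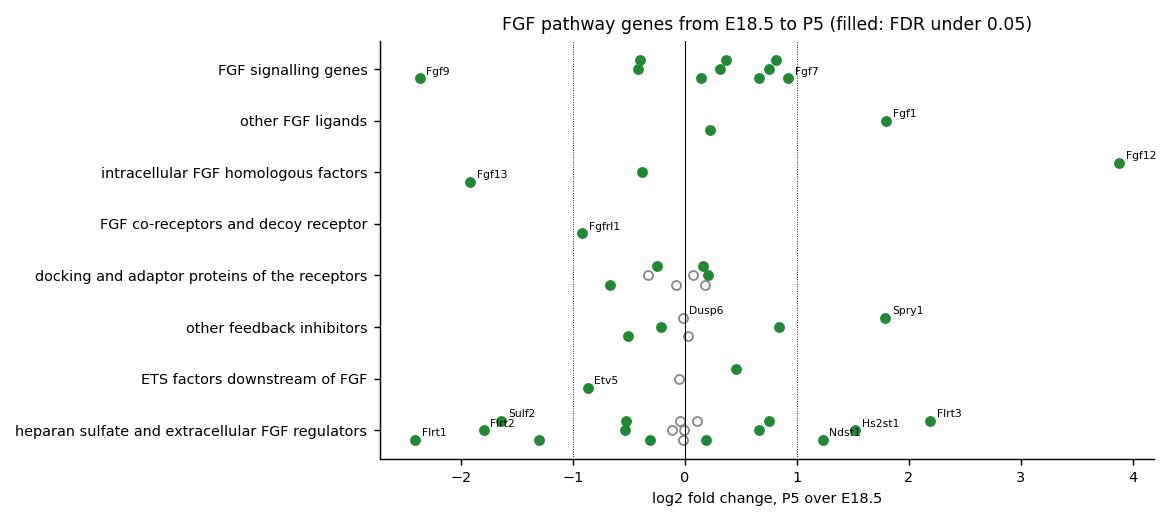
Fitted log2 fold change of P5 over E18.5 (x axis) of the 10 FGF genes (top) and of the 41 tested genes of the 7 pathway lists, 1 list per line (y axis; points are spread within a line only to separate them). Filled points passed an edgeR FDR of 0.05, dotted lines mark -1 and 1; Fgf12, Flrt3, Fgf1, Spry1, Hs2st1 and Ndst1 lie to the right of 1, and Flrt1, Fgf9, Fgf13, Flrt2, Sulf2 and Hs6st2 to the left of -1.

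Genes with a like course were sought among 10620 genes with a mean of at least 10 CPM, by Pearson correlation of log2(CPM + 1) over the 12 libraries. The libraries share their time-points and many genes follow them, so these values only describe likeness of course. Closest were Trabd2b and Vldlr for Fgf7 (both r = 0.98), Irf2bpl and Esrp2 for Fgf9 (0.99 and 0.97), Edn3 and Rai14 for Fgf10 (both 0.92), and Usp53 and Tinagl1 for Fgf18 (both 0.99). For the receptors they were Zdhhc1 and Rnf31 for Fgfr1 (0.90 and 0.88), Mbtps2 and Cask for Fgfr2 (both 0.97), and Mtus1 and Fcho2 for Fgfr3 (0.98 and 0.97). Tubb4a and Prep were nearest to Spry2 (0.95 and 0.91), and Caskin2 and Arhgap27 to Spry4 (0.99 and 0.98).

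Some counts are uncertain because exons overlap and the counting strand is not stated. In Gencode vM21, 998 exon bases of Fgfr3 are shared with G630022F23Rik on the other strand, 164 of Fgfr1 with Gm16159 and 123 of Fgf10 with Gm16263. Fgfr2 has 26 transcripts within chr7:130162451-130266263 (minus strand) and 1 long transcript that shares 314 exon bases with Ctbp2.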

How the data were processed

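Whole-lung RNA of 12 mice was sequenced, 3 per time-point. Per the labels and the study's methods, the authors aligned the reads to mm10 with TopHat2 2.1.1 and Bowtie2 2.3.4 and made the deposited raw counts with HTSeq 0.10.0. The deposited CPM values are counts that the authors scaled to the total of mapped reads, and the deposited percent spliced in (PSI) values with their text of read coverage came from VAST-TOOLS. Strand setting was not given in the sources used here. Samples were grouped by the time-point in their titles.

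Symbols were matched by Ensembl ID, and coordinates and exon lengths were read from Gencode vM21 (mm10). Upstream sequences came from RefSeq (GRCm38.p6) and were read for 8 of the 10 genes. The raw counts went into edgeR 4.0.16 (TMM, quasi-likelihood test) in 1 fit of 12 libraries, on genes that reached 1 CPM in 3 libraries or more, with time-point as the only term. Standard errors were taken from the log2 fold change and its F statistic. Benjamini-Hochberg adjustment ran over all genes tested. The fit was tested on simulated data. PSI events had no test.

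The 10 genes, the lists and the tests were chosen with earlier results of these data known. All 10 genes were named, and of the lists up to 3 genes per direction with the largest changes past both thresholds. Alternatives were DESeq2 1.42.0, limma 3.58.1 with pseudocounts of 1 and 0.1, other size factors, no filter, the 6 libraries compared, a replicate block and each library left out. Of the nonzero CPM values, 100% were whole reads within 0.01 of a read, and edgeR on these reads called 3434, 11466 and 2842 of 16214 genes in the 3 comparisons in time order. Spry3 was not analysed here. The genes closest in course to Fgfr4 are not reported here.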

Additional observations from a re-analysis of the deposited data

How the results depend on the processing

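From E18.5 to P5, the count of FGF genes past FDR 0.05 stayed within 1.5 times of 10 under every alternative run. It was 8, with 5 higher and 3 lower, by limma with either pseudocount, at FDR under 0.01 and without P5 replicate 2. It was 9 with library size only and with only the 2 time-points compared. Leaving out E18.5 replicate 1 or 2, P5 replicate 3 or P8 replicate 1 also gave 9. The other counts were less firm. From E15.5 to E18.5 it was 5, and 2 at FDR under 0.01, 0 without the E15.5 libraries high in heart genes, and 4 to 7 with each library left out. From P5 to P8 it was 2, and 1 with DESeq2 size factors in edgeR, without the filter on low counts, with reads recovered from CPM and at FDR under 0.01. It was 4 by DESeq2, 0 without the libraries high in thymus genes, and 1 to 3 with each library left out (1 without E15.5 replicate 1, P8 replicate 1 or 2, or any replicate of P5). With the fold change cutoff, the count from E15.5 to E18.5 was 0 to 1 with each library left out (1, Fgf7, without E18.5 replicate 3), that from E18.5 to P5 was 1 to 2 (2, with Fgf7, without E18.5 replicate 1), and that from P5 to P8 was 1, and 0 by limma on log2(CPM + 1) and without the libraries high in thymus genes. The cause was not tested. The 2 settings without libraries high in thymus or heart genes, the recovered reads and the exon lengths without shared bases were chosen after seeing the data.

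Of 690 values for single genes, 617 kept their direction and side of the threshold, 35 lost the call, 14 gained it and 24 changed sign, each of the last with an FDR over 0.05 before and after. From P5 to P8, Fgf10 ran from -0.18 to 0.05 with each library left out and was at 0.22 without the libraries high in thymus genes. In that comparison Fgf18 ran from -0.01 (without P5 replicate 1) to 0.12 and Fgfr3 from -0.13 (without P8 replicate 3) to 0.11. Fgfr4 was at 0.0036 with DESeq2 size factors in edgeR and by DESeq2, 0.01 with library size only, 0.0035 and 0.0034 by limma with pseudocounts of 1 and 0.1, -0.14 to 0.07 with each library left out, and 0.22 without the libraries high in thymus genes. From E15.5 to E18.5, Fgfr1 was at -0.02 with library size only, -0.01 by limma with either pseudocount, -0.01 to 0.02 with each library left out, -0.0027 without the libraries high in thymus genes and -0.01 without those high in heart genes.

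The replicate numbers did not pair the libraries: over 18 pairs of same-numbered libraries the correlations of deviations ran from -0.29 to 0.26, with 4 over 0.1. The fit with a replicate block gave 1 past FDR 0.05 from P5 to P8, Spry4 being the call lost, and changed no other call of the 10 genes. With PSI recomputed from the corrected reads, the 3 receptor events changed by -14.5, -26.2 and 30.9 points, as in the deposited values. Fgf9, at 39 to 65 reads per P5 library, is the member most limited by depth.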
